A study of Mus musculus with 24 samples.

Results

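The acetylation of histone H3 at lysine 27 (H3K27Ac) was mapped by ChIP-seq in mouse kidney FFPE, which is set here against mouse kidney Frozen. Kidney FFPE had been fixed in 10% formalin and embedded in paraffin, and heating to 95 °C for 20 min released its chromatin. Kidney Frozen had been flash frozen, cored and crosslinked in 1% formaldehyde for 30 min. The deposited table has 27179 genes and 8 columns, 1 for each of kidney, brain, heart and liver in each preservation, and the kidney pair was taken by its column names as 2 of the 8. The labels list 24 samples, with 16 H3K27Ac libraries, 4 of them from kidney, and 8 inputs, which were not used here. They give no strain, age or sex, do not say which organs shared a mouse, and do not say whether a column is 1 library or the merged reads of 2. Preservation therefore cannot be told apart from a difference between mice, and no kidney value has a replicate error. The design asks how closely the profile of archived tissue follows that of frozen tissue.

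H3K27Ac is written by the acetyltransferases p300 and CBP and marks active promoters and enhancers, and the reads over a gene are used as a readout of its regulatory activity. The kidney filters blood in the glomerulus, where podocytes form the filter, and passes the filtrate along the nephron. The proximal tubule, its bulkiest and most mitochondria-rich segment, takes back glucose, phosphate and amino acids and secretes organic anions and cations. The loop of Henle, the distal tubule and the collecting duct then set salt, acid and water.

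The promoters of 5 genes that the results turn on are printed from RefSeq (GRCm38.p6), 250 bases before the gene start to 50 after it, on the strand of the gene. Kap, Miox and Slc22a6 are the 3 genes furthest below kidney Frozen in kidney FFPE among the 22 of the proximal tubule list, and Skint3 and Sprr2a1 are 2 of the genes furthest above it. Capitals mark each CG, a dinucleotide that reads the same on both strands.
Kap (chr6:133853618-133853917, minus strand): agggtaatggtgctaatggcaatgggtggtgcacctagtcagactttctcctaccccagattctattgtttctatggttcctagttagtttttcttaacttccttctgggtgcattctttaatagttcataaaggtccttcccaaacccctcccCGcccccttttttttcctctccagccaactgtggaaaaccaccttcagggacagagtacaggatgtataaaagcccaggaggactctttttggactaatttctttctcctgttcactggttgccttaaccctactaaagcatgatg
Miox (chr15:89334223-89334522, plus strand): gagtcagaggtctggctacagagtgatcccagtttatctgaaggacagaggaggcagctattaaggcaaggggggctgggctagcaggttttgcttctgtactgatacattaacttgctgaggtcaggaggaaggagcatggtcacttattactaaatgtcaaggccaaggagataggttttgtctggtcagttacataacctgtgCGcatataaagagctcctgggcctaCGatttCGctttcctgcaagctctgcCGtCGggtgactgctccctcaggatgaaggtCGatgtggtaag
Slc22a6 (chr19:8617746-8618045, plus strand): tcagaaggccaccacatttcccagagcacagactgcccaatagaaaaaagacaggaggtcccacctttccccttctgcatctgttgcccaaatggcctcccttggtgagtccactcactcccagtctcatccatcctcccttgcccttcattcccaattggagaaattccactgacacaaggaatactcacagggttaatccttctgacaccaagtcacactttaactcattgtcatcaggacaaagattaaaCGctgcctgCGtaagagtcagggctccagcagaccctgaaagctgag
Skint3 (chr4:112231995-112232294, plus strand): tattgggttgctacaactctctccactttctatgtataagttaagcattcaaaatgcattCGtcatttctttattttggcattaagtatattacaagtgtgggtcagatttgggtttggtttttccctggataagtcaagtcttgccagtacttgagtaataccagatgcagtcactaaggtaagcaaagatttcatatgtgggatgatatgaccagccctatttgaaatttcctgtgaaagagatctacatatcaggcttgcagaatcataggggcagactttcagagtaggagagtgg
Sprr2a1 (chr3:92215585-92215884, plus strand): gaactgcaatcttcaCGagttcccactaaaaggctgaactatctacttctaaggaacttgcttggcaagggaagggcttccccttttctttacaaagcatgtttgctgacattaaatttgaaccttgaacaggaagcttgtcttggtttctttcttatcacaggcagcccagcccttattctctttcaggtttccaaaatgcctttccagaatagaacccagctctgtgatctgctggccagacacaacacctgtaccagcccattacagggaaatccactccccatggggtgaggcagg
These windows hold 1, 6, 2, 1 and 1 CG in the order printed. Over 27025 promoters of the same length the median was 7 and 94.2% held at least 1. Cwc22, another gene far below kidney Frozen in kidney FFPE, has 11 CG in its window, which is above that median.

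Kidney FFPE had 5309082 counts and kidney Frozen 4836830, with 109 counts over the median gene in FFPE and 116 in Frozen. Values are log2 CPM as deposited, and the counts behind them were recovered to state depth. Marker lists were checked against the other organs. The 18 genes of the loop of Henle and distal tubule list summed to 1135 CPM in kidney FFPE and 960 CPM in kidney Frozen. The other 6 columns had 547 to 685 CPM. The 39 Hox genes, which pattern the body axis and stay active in kidney, had a median of 5.82 (log2 CPM) in kidney FFPE and 5.18 in kidney Frozen, against 3.35 to 3.74 elsewhere. Other lists overlapped with other organs. Proximal tubule genes summed to 1534 CPM in kidney FFPE and 2016 CPM in kidney Frozen, against 1369 CPM in liver FFPE and 1712 CPM in liver Frozen. Podocyte genes summed to 834 CPM in kidney FFPE and 760 CPM in kidney Frozen, against 1161 CPM in heart FFPE and 1412 CPM in heart Frozen. Kidney FFPE had a Pearson correlation of 0.924 with kidney Frozen over 23444 genes, which are not independent replicates, and of 0.831 to 0.902 with the libraries of the other organs. Genes of the Y chromosome took 0.0498% of all counts, mitochondrial ones included, in kidney FFPE and 0.0497% in kidney Frozen. Those of the X chromosome took 1.33% in FFPE and 1.63% in Frozen. Mitochondrial genes took 18.4% of all counts in FFPE and 4.52% in Frozen, so equal shares are not equal signal over the other genes. Of 29 Y genes with at least 40 counts, 11 were 2-fold higher in FFPE and 6 lower, against 2.5% and 2.76% of all genes. Xist, the RNA of X inactivation, had 246 counts in FFPE and 242 in Frozen.

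Most genes carried H3K27Ac within 2-fold in the 2 kidneys. Among the genes past 2-fold were all 15 mitochondrial genes, many members of tandem gene families, and Kap and Miox of the proximal tubule. Of 23444 genes with at least 40 counts over the pair, 586 (2.5%) were at least 2-fold higher in kidney FFPE and 648 (2.76%) at least 2-fold lower. Of genes with at least 200 counts, 147 (1.0%) were 2-fold higher and 136 (0.926%) 2-fold lower. A difference above 0 was found for 51.5% of the 23444 genes and one below 0 for 48.5%, with a median of 0.02 (log2). Scaled to the total count instead, every gene lay 0.235 lower (log2), and 319 genes were 2-fold higher and 1349 lower, so the medians of gene lists are to be read against the median of all genes. Both directions together made 1234 of 23444 genes in kidney. Brain had 1038 such 2-fold genes of 23832, heart 1990 of 21433 and liver 3040 of 22316, each among its own genes with 40 counts.

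**Figure D1:**
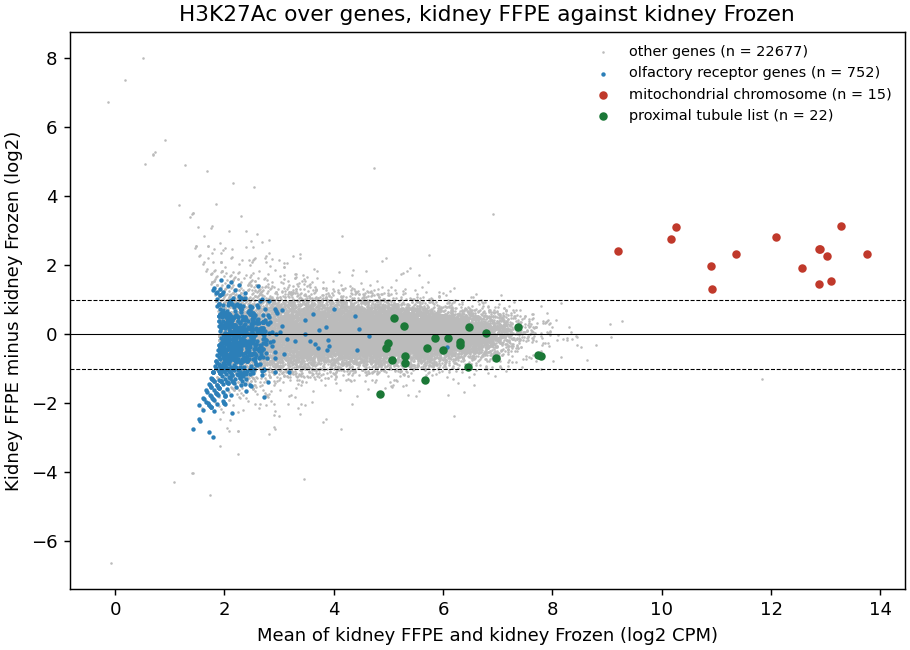
Difference between kidney FFPE and kidney Frozen (log2, y axis) against their mean (log2 CPM, x axis), 1 point per gene with at least 40 counts over the pair, with dashed lines at 2-fold. The 15 mitochondrial genes lie above the upper line, the 22 proximal tubule genes lie mostly below 0, and olfactory receptor genes fill the low end with more points under the lower line than above the upper.

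Of the nephron gene lists, that of the proximal tubule had the lowest median difference. Of its 22 listed genes 17 were below 0, against 48.5% of all genes, and the list median was -0.40 (log2). At least 2-fold lower were 2 (9.09%), against 2.76% of all genes, and none was 2-fold higher, against 2.5%. Fewer proximal tubule cells in the tissue and less acetylation per cell cannot be told apart in bulk chromatin. The same genes had medians of -0.14 in brain, 0.42 in heart and -0.16 in liver.

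Kap, the kidney androgen-regulated protein of the proximal tubule, had 82 counts in kidney FFPE and 295 in kidney Frozen, a difference of -1.74 (log2, 95% Clopper-Pearson interval of -2.12 to -1.39, which covers counting error only). Miox, which starts the breakdown of inositol, had 169 counts in kidney FFPE and 456 in kidney Frozen, a difference of -1.33 (-1.59 to -1.07). The promoters of both genes are printed above, and their intervals lie outside 2-fold. Slc22a6, the basolateral importer of organic anions, had 333 counts in kidney FFPE and 692 in kidney Frozen, a difference of -0.95. The organic cation importer Slc22a2, from the solute carrier list, had 107 counts in kidney FFPE and 319 in kidney Frozen (-1.47), and its relative Slc22a19 had 56 counts in FFPE and 141 in Frozen (-1.22). The solute carrier list as a whole had a median of -0.07 over 379 genes. At least 2-fold lower were 3 (0.792%) and at least 2-fold higher 2 (0.528%), below the shares of all genes (2.76% and 2.5%).

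Genes of reabsorption lay on both sides of 0. The phosphate cotransporter Slc34a1 had 519 counts in kidney FFPE and 902 in kidney Frozen (-0.70), and the glucose cotransporter Slc5a2 had 136 counts in FFPE and 244 in Frozen (-0.74). The scavenger receptor genes Lrp2, with 936 counts in kidney FFPE and 873 in kidney Frozen (0.20), and Cubn, with 587 counts in FFPE and 611 in Frozen (0.04), were at or above the median of all genes. The gluconeogenic genes Fbp1 (156 counts in kidney FFPE and 298 in kidney Frozen, -0.83) and Pck1 (909 in FFPE and 1478 in Frozen, -0.60) were lower, while G6pc (294 in FFPE and 341 in Frozen, -0.11) had an interval that held 0. Hnf4a, the nuclear receptor that drives proximal tubule genes, had 389 counts in FFPE and 486 in Frozen (-0.22), and Keg1 was the most positive of the list at 0.46. Within 1 segment the differences thus ran from -1.74 to 0.46.

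A list of 11 kidney genes that differ between the sexes in mice also stood lower, with 10 of 11 below 0, against 48.5% of all genes, and a median of -0.64 (log2). It shares 3 genes with the proximal tubule list, Kap among them. Cyp2a4, a steroid hydroxylase, had 85 counts in kidney FFPE and 169 in kidney Frozen (-0.89), and the organic anion transporter gene Slco1a1 had 138 counts in FFPE and 262 in Frozen (-0.82). Prlr, the prolactin receptor gene, was at -0.03, so the list was not evenly lower. In the other organs this list had medians of 0.02 in brain, 0.47 in heart and -0.01 in liver.

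The rest of the nephron stood level or slightly higher in kidney FFPE, with no member of these lists past 2-fold either way. Of 18 loop of Henle and distal tubule genes, 13 were above 0, against 51.5% of all genes, with a median of 0.20. Slc12a3, the thiazide-sensitive salt cotransporter of the distal tubule, had 608 counts in kidney FFPE and 382 in kidney Frozen (0.77, interval 0.58 to 0.96). Umod, the uromodulin gene of the thick limb, had 455 counts in FFPE and 344 in Frozen (0.50). Pvalb, a calcium-binding protein of the distal tubule, was the lowest of the list at -0.83, from 37 counts in kidney FFPE and 71 in kidney Frozen. Slc12a1, the salt cotransporter of the thick ascending limb, was at 0.19.

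Collecting duct genes were above 0 in 15 of 19 cases, against the same 51.5%, with a median of 0.28. The water channel Aqp2 of principal cells had 217 counts in kidney FFPE and 135 in kidney Frozen (0.78), and Foxi1, the transcription factor of intercalated cells, had 133 counts in FFPE and 76 in Frozen (0.90). Car2, a carbonic anhydrase shared by several segments, was the lowest at -0.54. Podocyte genes had 8 of 15 above 0 and a median of 0.01. The gene of the filter protein nephrin (Nphs1) had 172 counts in kidney FFPE and 168 in kidney Frozen (0.14), with an interval that held 0, while Podxl, the podocyte surface sialomucin, was at 0.66 and the cation channel Trpc6 at -0.63.

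Genes of endothelial cells and fibroblasts had medians above that of all genes. Endothelial genes had 13 of 18 above 0, against 51.5% of all genes, and a median of 0.29, and they summed to 1024 CPM in kidney FFPE and 807 CPM in kidney Frozen. Pecam1, an adhesion molecule of endothelial junctions, had 338 counts in kidney FFPE and 184 in kidney Frozen (0.98, interval 0.72 to 1.25), and the VEGF receptor gene Kdr had 675 counts in FFPE and 505 in Frozen (0.52). The 5 genes below 0 included Erg at -0.18, the lowest, and Cldn5 at -0.16. Cdh5 was at 0.18 with an interval that held 0. Of the 18 genes, 9 lay above all 3 other organs, against 24.4% of all genes. Fibroblast genes had 11 of 14 above 0 and a median of 0.28. They ran from Dcn at -0.07 to the hedgehog effector Gli1 at 0.88. The collagen genes Col1a1 (0.03) and Col3a1 (-0.06) were near 0, with intervals that held 0. Macrophage genes had 9 of 15 above 0 and a median of 0.16. Aif1 was at 0.77 and Cd68 at 0.70. Lyz2, encoding lysozyme, was 2-fold lower at -1.08, from 27 counts in FFPE and 62 in Frozen. Lymphocyte genes had a median of -0.02.

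**Figure D2:**
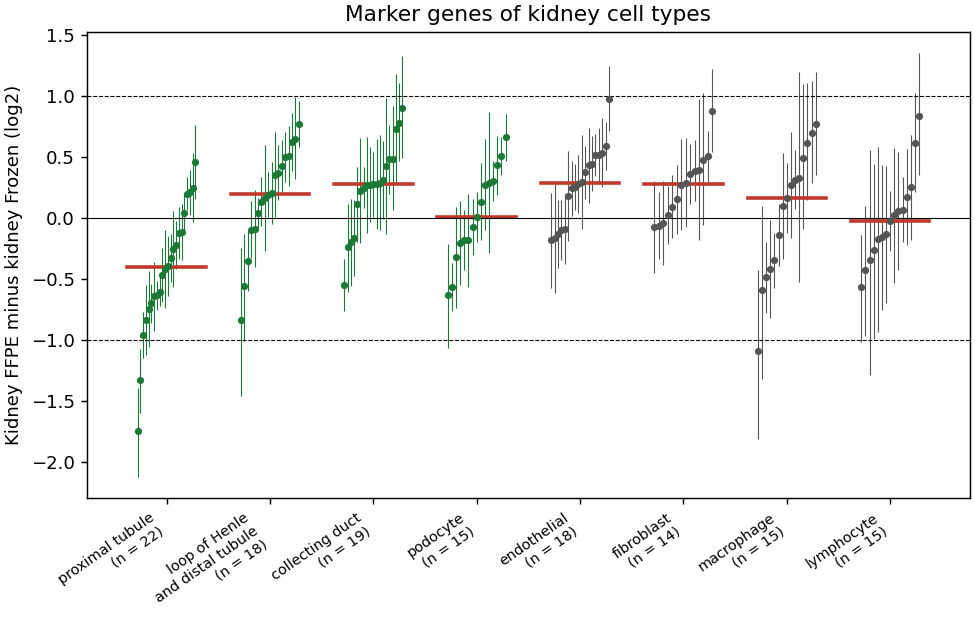
Difference between kidney FFPE and kidney Frozen (log2, y axis) for each marker gene with at least 40 counts, by cell type along the x axis. Points are genes, bars their 95% counting intervals, red lines the list medians, and dashed lines 2-fold. The proximal tubule is the list with the lowest median, -0.40, and holds both of the nephron genes past 2-fold.

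Markers of other tissues that a kidney core could hold were measured as well. Adrenal genes summed to 172 CPM in kidney FFPE and 165 CPM in kidney Frozen, urothelial genes to 222 CPM in FFPE and 208 in Frozen, and adipocyte genes, which include Pck1, to 370 CPM in FFPE and 436 in Frozen. Hepatocyte genes summed to 278 CPM in kidney FFPE and 261 CPM in kidney Frozen, against 1938 CPM in liver FFPE and 2593 CPM in liver Frozen. Tubule injury genes had a median of 0.17 with 13 of 17 above 0, and none passed 2-fold. Havcr1, the injury marker KIM-1, had 58 counts in kidney FFPE and 103 in kidney Frozen (-0.72), and Lcn2, encoding lipocalin 2, had 106 counts in FFPE and 65 in Frozen (0.80). Of the defining markers, Star of the adrenal cortex had 232 counts in FFPE and 193 in Frozen, Upk2 of the urothelium 61 in FFPE and 58 in Frozen, and Adipoq of fat 35 in FFPE and 46 in Frozen. None of these was at 0, and their part in the proximal tubule difference was not tested.

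Transcription factors of the nephron had a median of 0.18 over 25 genes and none past 2-fold, with Emx1 lowest at -0.71 and Foxi1 highest. Hox genes were above 0 in 32 of 39 cases, against 51.5% of all genes, with a median of 0.35, and 3 (7.69%) passed 2-fold upward, against 2.5% of all genes. Hoxc8 had 370 counts in kidney FFPE and 162 in kidney Frozen (1.29), Hoxb9 had 718 counts in FFPE and 363 in Frozen (1.08), and Hoxd4 was at 1.02. The lowest value belonged to Hoxd1 at -0.58. In heart and liver, where these genes carry little acetylation, the list had medians of 0.43 and 0.31, and in brain 0.05.

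Mitochondrial DNA carries no histones, and its genes made up the largest difference by counts. The 15 genes of the mitochondrial chromosome took 977593 counts, or 18.4% of the library, in kidney FFPE and 218854 counts, or 4.52%, in kidney Frozen (exact binomial intervals 18.38 to 18.45% and 4.51 to 4.54%). All 15 were at least 2-fold higher in kidney FFPE on the deposited scale, with a median of 2.32 (log2), whereas quantile normalization, which forces the libraries to 1 distribution, left 3 of 15 at least 2-fold higher. On that scale 11 of 15 were above 0 with a median of 0.28, ND5 was at 0, and COX1, COX3 and mt-Rnr2 were below 0. The same share was 16.0% in brain FFPE and 5.62% in brain Frozen, 36.0% in heart FFPE and 5.45% in heart Frozen, and 12.7% in liver FFPE and 5.29% in liver Frozen. The kidney difference lay between those of heart (median 3.13) and brain (1.75), with liver at 1.14.

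The size of the difference depended on the mitochondrial gene. ND2, a subunit of respiratory complex I, had 156255 counts in kidney FFPE and 18917 in kidney Frozen (3.15), and ND3, a subunit of the same complex, had 18963 counts in FFPE and 2371 in Frozen (3.10). At the other end COX3, a subunit of cytochrome oxidase, had 15990 counts in FFPE and 6955 in Frozen (1.30), and COX1 had 65714 counts in FFPE and 25822 in Frozen (1.45). The large ribosomal RNA gene mt-Rnr2 had 78325 counts in FFPE and 29048 in Frozen (1.53). In kidney the order ran from ND2, ND3 and ND6 down to mt-Rnr2, COX1 and COX3. The first 3 places were held by the same 3 genes in brain, heart and liver, and so were the last 3.

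Nuclear genes of the same respiratory chain lay mostly on the other side of 0. Of 78 nuclear oxidative phosphorylation genes, 68 were below 0, against 48.5% of all genes, with a median of -0.48 (log2). At least 2-fold lower were 7 (8.97%), against 2.76% of all genes, and none was 2-fold higher. By complex, the medians were -0.52 over 36 genes of complex I, -0.30 over 4 of complex II, -0.42 over 8 of complex III, -0.30 over 13 of complex IV and -0.50 over 17 of ATP synthase. Ndufb11, a complex I subunit, had 84 counts in kidney FFPE and 206 in kidney Frozen (-1.19). Sdhd, which anchors complex II in the membrane, had 42 counts in FFPE and 97 in Frozen (-1.10), and Atp5e of ATP synthase had 74 counts in FFPE and 163 in Frozen (-1.03). Cox4i2, an isoform of a cytochrome oxidase subunit that hypoxia induces in lung, was the highest at 0.90. Brain had a median of -0.05 for this list, heart -0.73 and liver -0.88, so kidney lay between brain and the other organs.

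Lists of other housekeeping machinery had medians nearer 0. Mitochondrial ribosomal protein genes had a median of -0.20 with 54 of 78 below 0. Of these genes 3 (3.85%) were 2-fold lower and 1 (1.28%) 2-fold higher, shares near those of all genes (2.76% and 2.5%). Cytosolic ribosomal protein genes had a median of -0.10 with 1 of 86 past 2-fold in each direction. Genes of fatty acid oxidation, the main fuel route of the proximal tubule, had a median of -0.15 with none past 2-fold. Ehhadh, a peroxisomal enzyme of this route, had 115 counts in kidney FFPE and 204 in kidney Frozen (-0.72), while Cpt1a, the carnitine transferase that admits fatty acids to mitochondria, was at 0.28.

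Genes that respond to handling and stress lay on both sides of 0. Immediate early genes, switched on within minutes of a stimulus, were above 0 in 17 of 24 cases, against 51.5% of all genes, with a median of 0.40 in kidney and 0.30 in brain, against -0.27 in heart and -0.39 in liver. Fos had 251 counts in kidney FFPE and 199 in kidney Frozen (0.44), and Btg2, an antiproliferative gene, had 696 counts in FFPE and 476 in Frozen (0.65). Nr4a3, an orphan nuclear receptor, was the member past 2-fold and lay lower, with 36 counts in FFPE and 87 in Frozen (-1.16). Heat shock genes were below 0 in 13 of 15 cases, against 48.5% of all genes, with a median of -0.27, against -0.01 in brain, -1.01 in heart and -0.90 in liver. The mitochondrial chaperonin gene Hspe1 had 203 counts in kidney FFPE and 380 in kidney Frozen (-0.80), and the inducible chaperone gene Hspa1a had 617 counts in FFPE and 698 in Frozen (-0.08).

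Clock genes had a median of 0.18 and glucocorticoid-responsive genes one of 0.23, none past 2-fold. Per1, which belongs to both, had 743 counts in kidney FFPE and 452 in kidney Frozen (0.82). Zbtb16, a transcription factor induced by glucocorticoids, had 545 counts in FFPE and 298 in Frozen (0.97). The clock activator gene Arntl was at 0.18 and its repressor Cry1 at 0.51. The hour at which each kidney was taken is not given in the labels.

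Interferon and MHC genes had a median of 0.15 over 23 genes, with 3 (13.0%) at least 2-fold higher, against 2.5% of all genes, and none 2-fold lower, against 2.76%. Ifit3, an antiviral gene induced by interferon, had 362 counts in kidney FFPE and 116 in kidney Frozen (1.74, interval 1.44 to 2.06). Its neighbour Ifit2 had 400 counts in FFPE and 212 in Frozen (1.01), and the class II gene H2-Aa had 70 counts in FFPE and 33 in Frozen (1.17). Isg15, induced by the same signal, had 49 counts in FFPE and 68 in Frozen (-0.37), and Mx1 was at -0.05, so the members of the list were not all higher. Ifit3 was also higher in brain (1.09), heart (1.28) and liver (1.95), with an adjusted p of 0.000859 by limma over those 3 organs.

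Olfactory receptor genes mostly carried few counts in kidney. Among genes with at least 40 counts they had medians of 2.16 (log2 CPM) in kidney FFPE and 2.43 in kidney Frozen. All such genes had 4.69 in FFPE and 4.67 in Frozen. All 1108 together had 23503 counts in kidney FFPE and 30490 in kidney Frozen, a difference of -0.27 (log2). Of these, 752 reached 40 counts, and of these 142 were at least 2-fold lower in kidney FFPE and 24 at least 2-fold higher, with a median of -0.28 (log2). Among genes with 40 to 99 counts, 19.2% of 733 olfactory receptor genes were 2-fold lower, against 6.90% of 3595 other genes. Upward the shares were 3.27% and 7.84%. Olfr198 had 6 counts in kidney FFPE and 54 in kidney Frozen, and Olfr1152 had 6 counts in FFPE and 49 in Frozen. Brain had a median of -0.07 over these genes, while heart and liver had positive medians of 0.43 and 0.49. All genes with 40 to 99 counts had medians near those, 0.37 in heart and 0.42 in liver, and of -0.03 in brain and -0.04 in kidney.

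**Figure D3:**
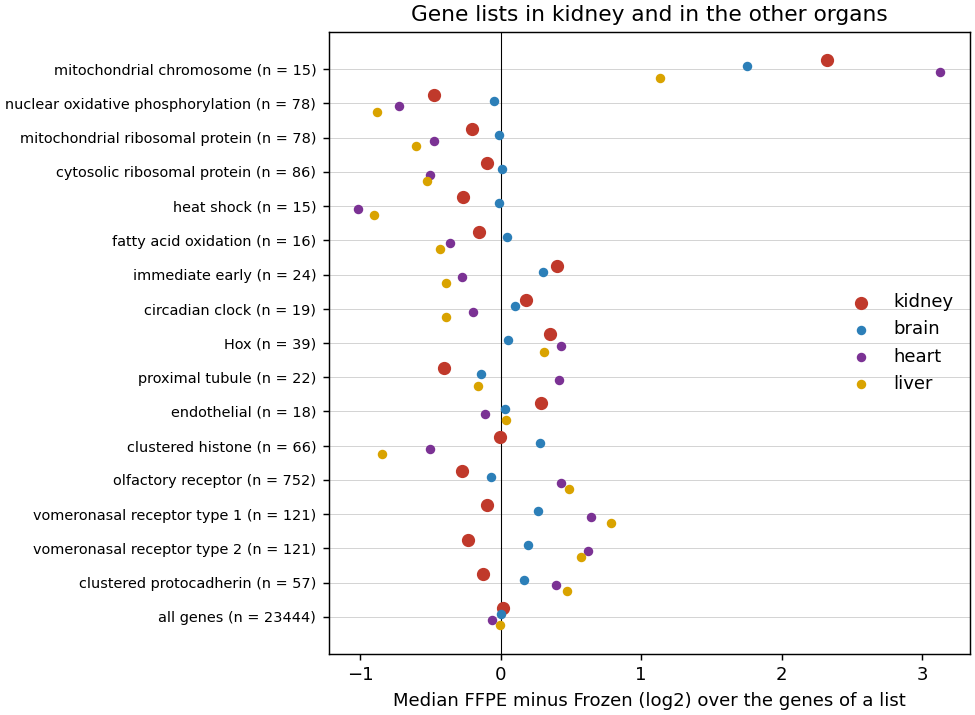
Median difference between FFPE and Frozen (log2, x axis) over the genes of each list (y axis, with the number of genes with at least 40 counts over the kidney pair). Kidney is drawn as the large red points and the other organs as small points. Kidney lies between brain and the heart and liver pair for nuclear oxidative phosphorylation (-0.48) and heat shock genes (-0.27), and below all 3 for proximal tubule (-0.40) and olfactory receptor genes (-0.28).

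Many of the largest differences for single genes sat in tandem families, whose near-identical copies can share reads, so the value of any 1 copy is uncertain. BC018473 had 120 counts in kidney FFPE and 0 in kidney Frozen, at least 42.9-fold higher when a count of 0 is taken to allow 3. Skint3, whose promoter is printed above, had 76 counts in FFPE and 0 in Frozen, 27.2-fold higher on the same reading. Its counting interval started at 4.43 on the log2 scale. Skint9 had 49 counts in FFPE and 0 in Frozen, 17.5-fold higher on that reading, with an interval from 3.78 (log2). Skint genes encode immunoglobulin-like membrane proteins of skin and thymus, and 4 of 11 (36.4%) were 2-fold higher, against 2.5% of all genes, with a median of 0.76. Brain (1.06), heart (1.43) and liver (1.58) had higher medians for this list. Sprr2a1, a cornified envelope protein of epithelia, had 249 counts in kidney FFPE and 37 in kidney Frozen (2.84, interval 2.35 to 3.39). BC018473, Skint3, Skint9 and Sprr2a1 were each also above 0 in brain, heart and liver.

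Downward, Rps12-ps12, a ribosomal protein pseudogene on the X chromosome, had 0 counts in kidney FFPE and 53 in kidney Frozen, at least 16.5-fold lower. Gm20737 of the Y chromosome had 2 counts in FFPE and 52 in Frozen (-4.29, interval -7.68 to -2.67). Itln1, an intestinal lectin, had 30 counts in kidney FFPE and 190 in kidney Frozen (-2.54), and the class Ib MHC gene H2-T3 had 32 counts in FFPE and 190 in Frozen (-2.45). Cwc22, a splicing factor gene present in several copies in some mouse strains, had 171 counts in FFPE and 946 in Frozen (-2.36). The glucuronosyltransferase gene Ugt1a10, which shares exons with the other Ugt1a genes, had 52 counts in FFPE and 228 in Frozen (-2.02). Each of these was also below 0 in brain, heart and liver except Gm20737, which was at 0.39 in liver.

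Some of the genes past 2-fold were neighbours among the placed genes with at least 40 counts over the pair. Genes under 40 counts were skipped, so members of a run need not be adjacent. Runs of at least 3 consecutive genes past 2-fold in 1 direction numbered 15 upward, with 92 of 487 placed genes (18.9%), and 10 downward, with 36 of 591 (6.09%). The longest held 15 genes around Vmn1r132, vomeronasal receptors and predicted genes of chromosome 7. They had 716 counts in kidney FFPE and 109 in kidney Frozen and a median of 2.57. These genes reached 40 counts mainly through kidney FFPE, where they are high. A run of 14 genes on chromosome 14, repeated copies of Plac9, Tmem254, Cphx and Duxbl genes, had 2568 counts in FFPE and 1029 in Frozen and a median of 1.57. Another of 5 genes around Trim5 on chromosome 7, which includes antiviral Trim12 genes, had 522 counts in FFPE and 157 in Frozen (1.58). Downward, 6 genes around Gm4301 on chromosome 10 had 101 counts in kidney FFPE and 517 in kidney Frozen (-2.25). Of the 15 upward runs 14 had medians above 0 in brain, heart and liver, and of the 10 downward runs 5 had medians below 0 in all 3. The upward run that did not was Prtn3, Elane and Cfd on chromosome 10, granulocyte proteases and the adipocyte gene adipsin, at 1.23 in kidney, -0.16 in brain, 0.80 in heart and 0.02 in liver.

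Whether a difference was particular to kidney was tested with limma on all 8 columns, as the kidney difference minus the mean difference of the other 3 organs. No gene of 26944 (0.0%) reached an adjusted p under 0.05 by Benjamini-Hochberg. An unadjusted p under 0.05 was found for 642 (2.38%), a smaller share than that threshold. The term has 2 residual degrees of freedom, and the smallest adjusted p was 0.99996. The smallest unadjusted p belonged to Gm20235, with 450 counts in kidney FFPE and 146 in kidney Frozen (1.72) and differences of -0.09 in brain, -0.04 in heart and 0.07 in liver. Cdsn, the cell adhesion protein corneodesmosin, had 129 counts in FFPE and 476 in Frozen (-1.78) and -0.12 in brain, 0.11 in heart and 0.63 in liver. Sp5, a transcription factor of the Wnt pathway, had 245 counts in FFPE and 836 in Frozen (-1.67), with 0.66 in brain, -0.26 in heart and -0.29 in liver. Camk1, a calmodulin-dependent kinase, had 248 counts in FFPE and 103 in Frozen (1.37), with 0.02 in brain, -0.91 in heart and -0.02 in liver.

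Proximal tubule genes were not called in that test either. Kap differed from the other organs by -2.21 (log2) and Slc22a6 by -1.14, each with an adjusted p of 0.99996 or more. Of the 22 genes 11 lay below all 3 other organs, against 20.1% of all genes. An unadjusted p under 0.05 was found for 4, against 484 of all 23444 genes with at least 40 counts. Slc12a3 lay 1.10 and Pecam1 1.00 above the mean of the other organs, likewise not called.

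A comparison that shares no library with the kidney pair took FFPE against Frozen in brain, heart and liver, where limma called 406 genes higher (1.51%) and 172 lower (0.638%) of 26944 at an adjusted p under 0.05. Of the 221 higher genes with at least 40 kidney counts, 212 (95.9%) were also above 0 in kidney, against 51.5% of all genes, and 153 were at least 2-fold higher. Their median was 1.51 in kidney and 1.89 over the other organs. Of the 169 lower genes, 163 (96.4%) were also below 0 in kidney, against 48.5%, and 43 were at least 2-fold lower, with medians of -0.72 in kidney and -0.998 over the others. None was 2-fold in the opposite direction. The calls rest on which organs enter: without brain 2492 genes were called and the shares fell to 79.2% and 81.9%, without heart 306 were called and without liver 336, with shares of 93.1% to 98.5%. Sprr2a1, Skint3, Zfp991 (324 counts in kidney FFPE and 80 in kidney Frozen, 2.11) and Cwc22 were among the genes called.

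**Figure D4:**
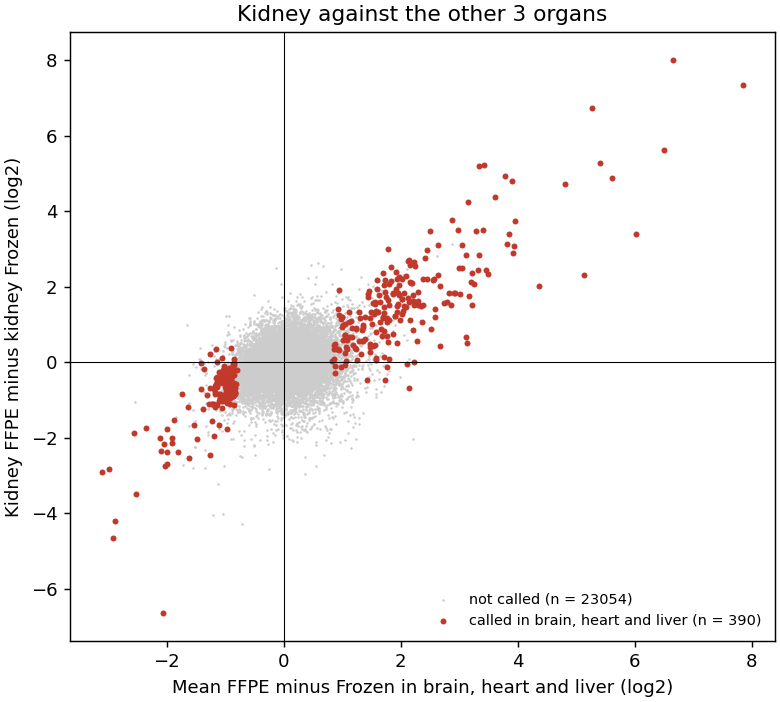
Difference between FFPE and Frozen in kidney (log2, y axis) against the mean difference in brain, heart and liver (log2, x axis), 1 point per gene with at least 40 kidney counts. The 390 genes called in the other 3 organs (red) fall mostly in the upper right and lower left, with 212 of 221 and 163 of 169 on the same side of 0 in kidney.

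The genes past 2-fold in kidney were then followed in the other organs. Of the 586 genes 2-fold higher in kidney FFPE, 323 (55.1%) were above 0 in all 3 other organs, against 16.4% of all 23444 genes, and 153 (26.1%) were called there, against 0.943%. Of the 648 genes 2-fold lower, 168 (25.9%) were below 0 in all 3, against 17.6% of all genes, and 43 (6.64%) were called, against 0.721%. Genes with under 100 counts made up 306 (52.2%) of the higher and 389 (60.0%) of the lower genes, against 18.5% of all genes. Predicted genes with Gm names made up 135 (23.0%) of the higher and 87 (13.4%) of the lower, against 6.99% of all genes. Olfactory receptor genes made up 24 (4.10%) of the higher and 142 (21.9%) of the lower, against 3.21%.

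The kidney difference varied little with the depth of a gene. Its median was -0.04 (log2) for genes with 40 to 99 counts over the pair and 0.03 for those with 1000 or more. Brain likewise had -0.03 and 0.08, whereas heart had 0.37 and -0.25 and liver 0.42 and -0.37. The CG content of the promoter gave the same division. Across 17290 genes, which are not independent, the Spearman correlation of the difference with the number of CG in the promoter was 0.03 in kidney and 0.04 in brain, against -0.32 in heart and -0.29 in liver. Genes with at most 2 CG, such as Kap and Slc22a6, had a median of -0.06 in kidney and those with more than 30 one of 0.03.

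**Figure D5:**
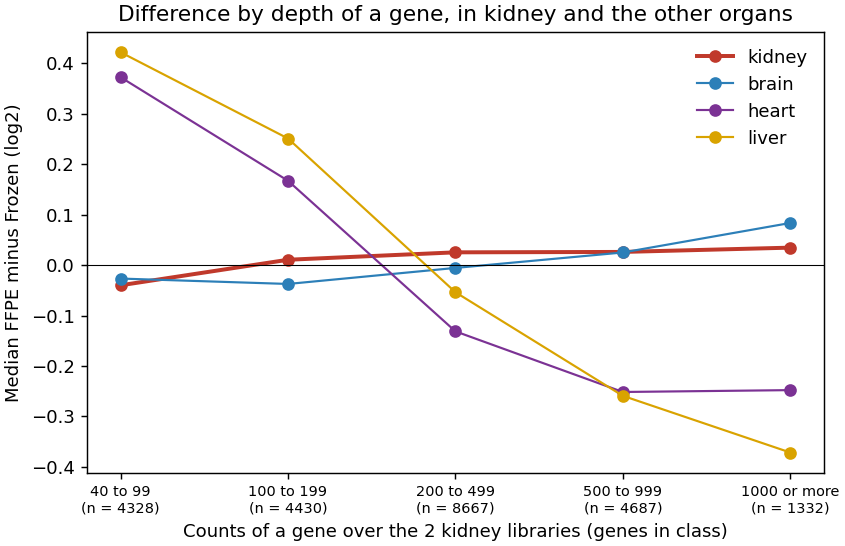
Median difference between FFPE and Frozen (log2, y axis) for genes in classes of counts over the kidney pair (x axis), for kidney and the other 3 organs. The kidney line stays between -0.04 and 0.03, brain between -0.04 and 0.08, and heart and liver cross from above 0.35 to below -0.20.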

How the data were processed

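H3K27Ac ChIP-seq of mouse kidney, brain, heart and liver was analysed from the table the authors deposited, whose values are log2 CPM per gene after their own library scaling. The submitters' processing notes name the build mm10 and the tools limma, featureCounts and Bowtie2. Their versions, the span counted per gene and the rule for multiply mapped reads were not given in the sources used here. Every value returned a whole count (log2 of the count plus 0.5 over an effective library size, within 0.001). Total counts were 4404789 to 6164562 per column, and scaling factors were 0.992 in kidney FFPE and 1.17 in kidney Frozen. These counts served for depth and intervals only. Intervals cover counting error only. Floors read a count of 0 as 3 counts and leave out the counting error of the other library.

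With 1 column per group, kidney has no test. Tests were two-sided fits with limma 3.58.1 in R 4.3.3 (lmFit, eBayes with trend, Benjamini-Hochberg) over 26944 genes, after 235 genes at 0 everywhere were left out. The kidney term assumes that kidney varies like the other 3 organs, with organs in the place of replicates, so a p-value here reflects spread between organs. The code was tested on simulated data. The labels name 2 runs and 2 library kits that cannot be matched to columns. Of the genes 25275 matched RefSeq (GRCm38.p6) by identifier, 18458 had a promoter sequence and 1275 had no symbol.

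The members, lists and named genes were chosen with earlier results of these data known. Named genes were the 10 highest and 10 lowest differences with a symbol and at least 40 counts, the same at 200 counts, up to 4 extremes per list, and set markers. Other genes are named as list members. The mitochondrial chromosome list, the genes with the smallest p of the kidney term and the runs of neighbours were added after values were seen. Alternatives were other scalings, added counts, count minimums, prior variances, weights and leaving out each organ.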

Additional observations from a re-analysis of the deposited data

Results flagged for a closer look

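Vomeronasal receptor type 2 genes, which encode chemosensory receptors, had a median of -0.23 (log2) over 121 genes in kidney, below 0. Brain (0.19), heart (0.62) and liver (0.57) were above 0. Vmn2r20 had 56 counts in kidney FFPE and 144 in kidney Frozen (-1.25), and Vmn2r129 had 131 counts in FFPE and 56 in Frozen (1.32) and was higher in all 4 organs. Clustered protocadherin genes, adhesion molecules of neurons, had a median of -0.12 over 57 genes in kidney and of 0.17 in brain, 0.39 in heart and 0.47 in liver. Pcdhb6 had 19 counts in kidney FFPE and 64 in kidney Frozen (-1.63), while Pcdhga10 had 105 counts in FFPE and 54 in Frozen (1.05). In both lists kidney lay on the opposite side of 0 from the other organs. The lists had kidney FFPE medians of 3.37 and 3.57 (log2 CPM), against 4.69 for all genes. All genes with 100 to under 200 counts over the kidney pair had medians of 0.17 in heart and 0.25 in liver. Those genes had 0.01 in kidney and -0.04 in brain. At 40 to under 100 counts the medians were 0.37 in heart, 0.42 in liver, -0.04 in kidney and -0.03 in brain. Positive heart and liver medians were thus not particular to these lists. Neither the opposite signs nor a difference from genes of that depth was tested.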

How the results depend on the processing

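Kidney differences rest on 1 column per side and on 109 and 116 counts for the median gene, so 2-fold calls are thinnest among genes under 100 counts. Scaling to the total count lowered every gene by 0.235 (log2) and gave 319 genes 2-fold higher and 1349 lower, with 19.1% of the 2-fold genes higher in place of 47.5%. The loop of Henle and distal tubule list then had a median of -0.04 and the clock list one of -0.05. Without a minimum of counts 1345 genes were higher and 1302 lower, at 100 counts 280 and 259, and at 200 counts 147 and 136. Counts outside mitochondrial genes as the scale, chosen after seeing the data, gave 569 and 670. Quantile normalization left 3 of the 15 mitochondrial genes 2-fold higher and turned mt-Rnr2 to -0.33, COX3 to -0.28, COX1 to -0.37 and the median of the 2 mitochondrial ribosomal RNA genes to -0.10. The kidney term had 0 calls under every alternative run with limma, voom weights included, with 489 to 1902 genes at an unadjusted p under 0.05. The calls over brain, heart and liver moved most. Quantile normalization gave 289 (232 higher, 57 lower), a prior variance without trend 244 (234 and 10), and equal median and spread 96 lower. Leaving out 1 organ gave 306 to 2492 calls, 274 to 585 higher and 32 to 1907 lower. Among named genes 1392 of the values under an alternative stayed within the limits set for a change, 81 moved and 3 turned sign. The causes were not tested. No paired analysis was possible because the columns carry no replicate number.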

Other observations

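Rn45s, the precursor of ribosomal RNA, chosen after its values were seen, was the highest gene outside the mitochondrial chromosome, at 11.19 (log2 CPM) in kidney FFPE and 12.48 in kidney Frozen. Its difference of -1.29 compares with -0.79 in brain, -0.23 in heart and -0.74 in liver.

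The 120 small nucleolar RNA genes together had 2232 counts in kidney FFPE and 2579 in kidney Frozen, a difference of -0.10 (log2), and 35 of them reached 40 counts over the pair. MicroRNA genes had a median of 0.02 over 68 genes with 40 counts. Of these 4 (5.88%) were 2-fold higher and 5 (7.35%) lower, against 2.5% and 2.76% of all genes. Mir2861 and Mir3960 lie side by side on chromosome 2 and can share reads, so they are not separate observations. They had 19 counts each in kidney FFPE, against 85 and 79 in kidney Frozen (-2.03 and -1.93). Both were also below 0 in heart and liver. Mir99b had 37 counts in FFPE and 9 in Frozen (2.08). The 120 immunoglobulin heavy-chain V genes together had 894 counts in kidney FFPE and 1728 in kidney Frozen (-0.81), and 7 of them reached 40 counts. Sry, the testis-determining gene, had 11 counts in FFPE and 46 in Frozen (-1.92), whereas Uty, another Y-linked gene, had 140 counts in FFPE and 179 in Frozen (-0.25).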
